A study of Rattus norvegicus with 36 samples.

Results

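Lrp2 encodes a receptor that binds thyroglobulin and takes it up. Cpq and the cathepsin genes Ctsb, Ctsd, Ctsk, Ctsl and Ctss encode proteases that can cut it in the release of thyroid hormone. These 7 genes were chosen by function, but with earlier results of these data known. Every non-control probe whose transcript accession maps to one of them was taken. These were 8 of the 30367 probes of the array, for 7 of the 15154 genes it names, with 1 probe for each gene and 2 for Lrp2. The 36 arrays came from the thyroids of adult male Sprague Dawley rats, 1 rat per array, 24 h after a tail vein injection of the beta- and gamma-emitting radioiodine 131I in saline. Groups of 4 rats received 9, 88, 170 or 260 kBq at the lower end and 340, 760, 1300 or 4700 kBq at the upper end, and 4 non-irradiated controls were mock-treated with saline that held no 131I (0 kBq). The rats were otherwise untreated, carried no altered gene and ate standard chow. They were kept 4 to a cage, and the groups were injected in order of rising activity with the controls last, so that order of handling and activity cannot be told apart.

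Thyroid follicles are hollow balls of thyrocytes that store hormone as iodinated thyroglobulin in their lumen. To release it, thyrocytes take thyroglobulin back in by fluid uptake and by receptors, and aspartic and cysteine proteases in the lumen and in lysosomes cut it, after which exopeptidases free the hormone from small peptides. Megalin, the product of Lrp2, is a large apical receptor that binds thyroglobulin. Cathepsins D, B, L, K and S are endopeptidases, of which cathepsin D is an aspartic protease and the others are cysteine proteases, and Cpq encodes carboxypeptidase Q, an exopeptidase that cleaves dipeptides. Most of these proteases also work in other cells: cathepsin S is best known from macrophages and other antigen-presenting cells, cathepsin K from osteoclasts, and cathepsins B, D and L from lysosomes of nearly every cell.

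All levels below are log2 intensities relative to the 75th percentile of their own array, so that 0 is the 75th percentile and 1 unit is a 2-fold step, and levels are compared between arrays for 1 probe, not between probes. That percentile lay between 1564 and 4288 intensity units, and 60.1 to 88.5% of probes were well above background. Of the 36 libraries labelled thyroid, 18 carried little thyrocyte signal. Iyd, the deiodinase that recovers iodide inside thyrocytes and the reference for this pattern, was at -0.26 to 1.45 on 18 arrays and at -8.21 to -3.28 on the other 18, with a gap of 3.02 between them and only 3 of the lower 18 well above background. The 13 thyrocyte genes examined had a mean level of 1.07 to 2.61 on the 18 arrays above the gap and of -5.19 to -0.79 on those below it, with 12 of the 13 well above background on every array above and 7 to 12 on those below. Thyroglobulin itself (Tg) was at 6.78 to 7.48 above the gap and spread from -4.51 to 6.83 below it, and the iodide transporter Slc5a5 was well above background on 18 arrays above and 8 below. Rats with Iyd above the gap numbered 3 of 4 in the controls, 1 at 9 kBq, 2 each at 88, 170, 260, 760 and 1300 kBq, 1 at 340 kBq and 3 at 4700 kBq. In a piece of tissue, fewer thyrocytes and less RNA per thyrocyte cannot be told apart. Genes of C cells and of the parathyroid moved with Iyd too: all 6 C cell genes and 3 of 4 parathyroid genes had a positive slope on Iyd that passed the test described below. The other parathyroid gene, Tbx1, passed downward with a slope of -0.41. Nearness of these tissues and the thyrocyte content therefore cannot be told apart in what follows. The list means were -1.37 to 3.07 above the gap and -6.56 to -3.95 below it for the C cell genes, and -2.64 to 3.29 against -4.80 to -1.12 for the parathyroid genes. Genes of some other tissues fell with Iyd: 3 of 5 squamous epithelium genes, 6 of 7 cartilage genes, 8 of 10 fibroblast and connective tissue genes and 3 of 8 skeletal muscle genes passed downward and none of these passed upward. Not all did: 2 of 6 endothelium genes and 1 of 5 adipose genes passed upward and none downward. The adipose gene was Ucp1, whose slope of 0.93 was steeper than those of both Lrp2 probes. The squamous list had a median level of 3.31 below the gap and of -4.47 above it.

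The promoters of 3 genes are printed because these genes moved in 3 different ways, described below: Lrp2 with Iyd, Ctsd against it, and Ctss with macrophage genes. Each is the 250 bases before the start used in the RefSeq promoter table for rat build GRCr8, 5′ to 3′, in which 5 of the 7 genes were found (Ctsd, Ctsk, Ctsl, Ctss and Lrp2, not Cpq and Ctsb). Capitals mark GGGCGG, the GC box, in Lrp2 (minus strand, chr3:74754536-74754785), CACGTG, the E-box, alone and inside the longer TCACGTGA in Ctsd (minus strand, chr1:206968822-206969071), and the reverse complement of GAGGAA, the core bound by the myeloid factor PU.1, in Ctss (plus strand, chr2:185775146-185775395).
Lrp2: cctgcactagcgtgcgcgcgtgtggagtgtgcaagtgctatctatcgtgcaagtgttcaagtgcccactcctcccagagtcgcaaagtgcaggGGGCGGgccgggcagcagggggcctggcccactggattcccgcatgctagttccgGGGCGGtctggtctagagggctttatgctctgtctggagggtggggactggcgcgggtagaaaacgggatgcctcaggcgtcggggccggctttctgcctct
Ctsd: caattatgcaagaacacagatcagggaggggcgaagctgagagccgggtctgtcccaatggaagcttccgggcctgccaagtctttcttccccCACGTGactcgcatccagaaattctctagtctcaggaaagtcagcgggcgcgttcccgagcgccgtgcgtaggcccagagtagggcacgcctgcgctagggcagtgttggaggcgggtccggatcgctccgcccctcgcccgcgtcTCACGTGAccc
Ctss: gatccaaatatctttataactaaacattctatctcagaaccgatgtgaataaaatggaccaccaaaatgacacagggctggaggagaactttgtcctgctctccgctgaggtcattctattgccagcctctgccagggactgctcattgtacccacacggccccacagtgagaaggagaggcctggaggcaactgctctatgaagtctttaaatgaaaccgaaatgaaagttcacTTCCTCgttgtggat
The Lrp2 promoter held GGGCGG starting 157 and 102 bases before the start. The Ctsd promoter held an E-box starting 157 bases before the start and a TCACGTGA starting 11 bases before it, and Ctss held its match 15 bases before. Searched on both strands in the same 250 bases of 33469 promoters, GGGCGG was in 30.5% of them (here in Ctsd, Ctsl and Lrp2). CACGTG was in 5.59% (Ctsd), TCACGTGA, which contains CACGTG, in 0.657% (Ctsd) and GAGGAA in 23.3% (Ctsk and Ctss). CTCAAG, 1 form of the core bound by the thyroid factor NKX2-1, was in 13.3% (none of the 5), and other forms of that core were not searched. For Ctss that start lies within the gene as RefSeq bounds it, so that the last 80 bases printed, with the match, lie inside the gene. A match is a stretch of letters and does not show binding.

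Which of these genes followed the thyrocytes was asked with the slope of each probe on Iyd, fitted in limma with the 9 group means in the model so that no difference between dose groups enters it. A slope of 1 means that the probe moved as many log2 units as Iyd did. With Benjamini-Hochberg adjusted p under 0.01 over 30366 probes, 6 of the 8 member probes had a slope: 5 rose with Iyd, where 18.3% of all probes did, and 1 fell with it, where 23.5% did. The median slope over all probes was -0.02. Lrp2 and Cpq had the steepest slopes of the set, Ctsl and Ctsb rose shallowly, Ctsd fell, and Ctsk and Ctss did not pass.

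**Figure D1:**
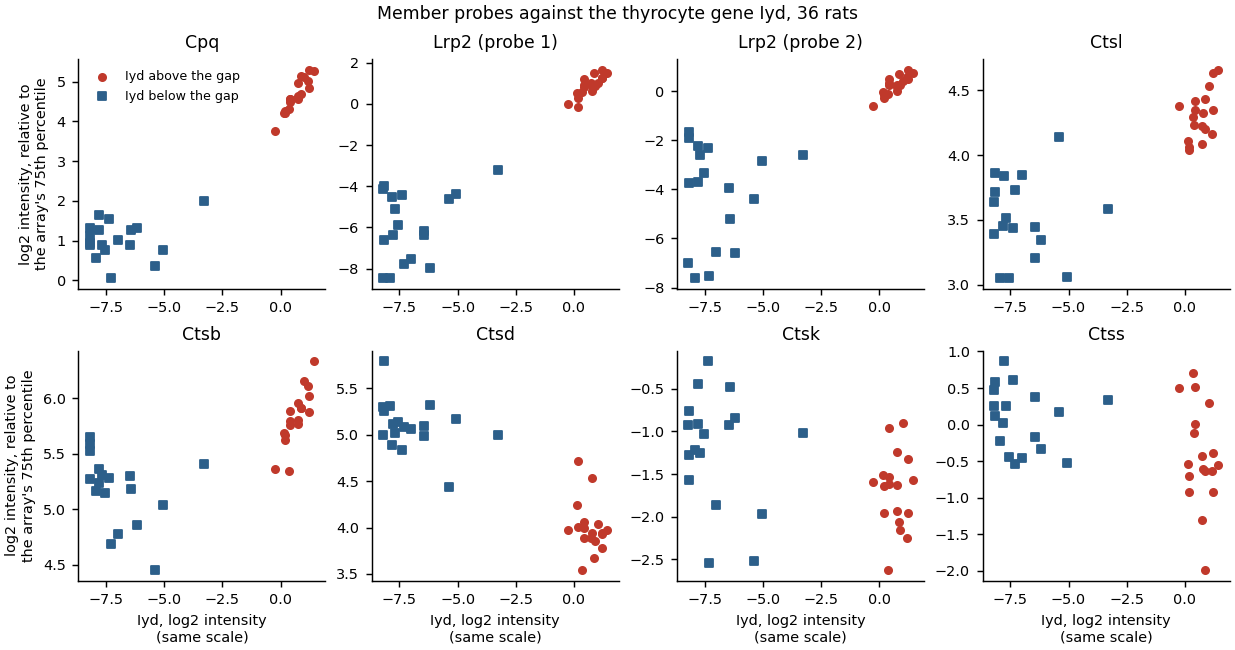
Level of each member probe (vertical axis) against Iyd (horizontal axis), both log2 intensity relative to the 75th percentile of the array, 1 point per rat (36 rats); red circles are the 18 arrays with Iyd above its gap and blue squares the 18 below. Cpq and both Lrp2 probes separate completely between the sides, Ctsd lies lower where Iyd is high, and Ctsk and Ctss overlap.

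Lrp2, the uptake receptor, had 2 probes. The first (A_44_P1047441) ranged from -0.14 to 1.67 with a median of 0.90 above the Iyd gap and from -8.47 to -3.19 with a median of -6.03 below it. The second (A_64_P090558) ranged from -0.61 to 0.89 above, with a median of 0.25, and from -7.62 to -1.68 below, with a median of -3.70. Neither probe overlapped between the sides: all 18 arrays above the gap exceeded all 18 below. The sides are set by Iyd, which many probes follow. Neither here nor for the member probes below was the share of all probes that part the sides counted. On the lower side the first probe was well above background on 9 of 18 arrays and the second on 13 of 18, against 18 of 18 above, so that part of the lower values lie at the dim end of the scale. The slopes on Iyd were 0.86 (SE 0.06, 95% interval 0.75 to 0.98, adjusted p = 5.15e-13) and 0.56 (SE 0.07, interval 0.42 to 0.71, adjusted p = 2.52e-07). Of all probes, 0.119% had a slope at least as steep as the first and 0.560% as the second.

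Cpq, the exopeptidase at the end of the chain, was well above background on all 36 arrays. It ranged from 3.75 to 5.30 above the gap, with a median of 4.59, and from 0.05 to 1.99 below it, with a median of 0.98. All 18 arrays above exceeded all 18 below, with medians 3.61 log2 units apart. Its slope on Iyd was 0.46 (SE 0.03, interval 0.41 to 0.51, adjusted p = 6.79e-15), and 0.948% of probes had one at least as steep.

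Among the endopeptidases, Ctsl ranged from 4.04 to 4.66 above the gap and from 3.05 to 4.14 below it. The sides touched: 14 of the 18 higher arrays exceeded all lower ones, and the medians were 0.83 apart. Its slope was 0.09 (SE 0.01, interval 0.07 to 0.12, adjusted p = 1.39e-06). Ctsb ranged from 5.35 to 6.33 above and from 4.45 to 5.65 below, with medians 0.59 apart and 15 of 18 higher arrays over all lower ones. Its slope was 0.08 (SE 0.02, interval 0.05 to 0.11, adjusted p = 4.87e-05). Slopes of this size were common: 13.4% of all probes had one at least as steep as Ctsl and 15.4% as Ctsb.

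Ctsd, the aspartic endopeptidase, ran the other way. It ranged from 3.54 to 4.71 above the gap, with a median of 3.96, and from 4.43 to 5.79 below it, with a median of 5.09, and 16 of the 18 arrays above the gap were lower than all 18 below. The slope was -0.14 (SE 0.01, interval -0.16 to -0.11, adjusted p = 1.04e-09), with 10.3% of all probes at least as far down. Its direction did not turn under another scaling, but the slope shrank to -0.07 with quantile normalization and with the authors' own matrix, under which Ctsl and Ctsb had slopes of 0.15, and it was -0.20 with normexp background correction and -0.19 on the thyrocyte list in place of Iyd.

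Ctsk ranged from -2.63 to -0.90 above the gap and from -2.54 to -0.18 below, and Ctss from -1.99 to 0.70 above and from -0.53 to 0.86 below. Both overlapped between the sides, although 10 of the 18 arrays above the gap had Ctss under all 18 below, against 1 of 18 for Ctsk. Their slopes were -0.07 (SE 0.03, interval -0.12 to -0.01, adjusted p = 0.033) and -0.06 (SE 0.03, interval -0.11 to -0.01, adjusted p = 0.0415), which miss the limit of 0.01. With array weights Ctsk had a slope of -0.08 that passed (adjusted p = 0.00788), and leaving out single rats moved its adjusted p from 0.00309 to 0.0996.

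The slopes were also fitted on each side of the Iyd gap. Fitted on the 18 arrays above it alone, Cpq had a slope of 0.85 (adjusted p = 0.0176), the Lrp2 probes 0.90 (adjusted p = 0.0215) and 0.80 (adjusted p = 0.0176), Ctsb 0.49 (adjusted p = 0.0506), Ctsl 0.15 and Ctsd -0.13. No member passed the limit of 0.01 there, and 0% of all probes did. On the 18 arrays below the gap the slopes were 0.07 for Cpq, 0.09 and -0.32 for the Lrp2 probes, 0.01 for Ctsl, -0.08 for Ctsb and -0.01 for Ctsd, again with 0% of all probes called. Counted at an unadjusted p under 0.05, 7417 probes in all passed above the gap and 662 below. The arrays were scanned on 2 days, which held 16 and 20 arrays with 10 and 8 of them above the gap. Within the first day the slopes were 0.43 for Cpq, 0.81 and 0.53 for Lrp2, 0.06 for Ctsl, 0.06 for Ctsb and -0.16 for Ctsd, and within the second 0.48, 0.77 and 0.44, 0.10, 0.09 and -0.11 in the same order. Directions were the same on both days.

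The other genes of these pathways gave a background for the members. Of 11 other lysosomal peptidases with a probe, 3 rose with Iyd and 1 fell, with a median slope of 0.03. Those that rose were Ctsa (0.07), which encodes the protective protein of lysosomal glycosidases, the aminopeptidase cathepsin H (Ctsh, 0.06) and the dipeptidyl peptidase Dpp7 (0.05). Scpep1, a serine carboxypeptidase, fell (-0.07). Lgmn, the asparaginyl endopeptidase that matures cathepsins, had a slope of -0.05 that missed the limit (adjusted p = 0.0144). Of 25 other lysosomal proteins, 14 rose and 3 fell, with a median of 0.06. Among those that rose were Npc2, which carries cholesterol inside lysosomes (0.28), the membrane protein Lamp2 (0.19) and the galactosidase Gla (0.17), while Npc1, the membrane partner of Npc2, fell (-0.16), as did Tfeb, the transcription factor of lysosomal genes (-0.13), and the channel Mcoln1 (-0.05). None of these 36 slopes reached that of Cpq.

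Of 11 megalin partners and related uptake receptors, 5 rose and 3 fell, with a median slope of -0.04. Asgr1, the asialoglycoprotein receptor subunit, rose with a slope of 0.67, between those of the 2 Lrp2 probes, and was well above background on 18 arrays above the gap and 4 below. The sorting receptor Sorl1 rose by 0.19 per unit of Iyd, Sort1 by 0.09 and the mannose 6-phosphate receptor M6pr by 0.07. Among those that fell were the receptors Lrp1 (-0.12) and Igf2r (-0.07). Cubn, the co-receptor of megalin in kidney, had a slope of -0.07 (adjusted p = 0.0595), and its anchor Amn, well above background on 5 of 36 arrays, one of -0.08 (adjusted p = 0.0561). Among 4 inhibitors of cathepsins, Csta fell with a slope of -0.70 and none rose. Csta is also a gene of squamous epithelium. Of 7 further genes of hormone release, 2 rose, among them the deiodinase Dio1 (0.85), and 1, the transporter Slc16a10, fell (-0.16). Of the 13 thyrocyte genes, 12 rose, with a median slope of 0.66, above that of Cpq and of the second Lrp2 probe. The exception was Slc26a4, not well above background on any of the 36 arrays.

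**Figure D2:**
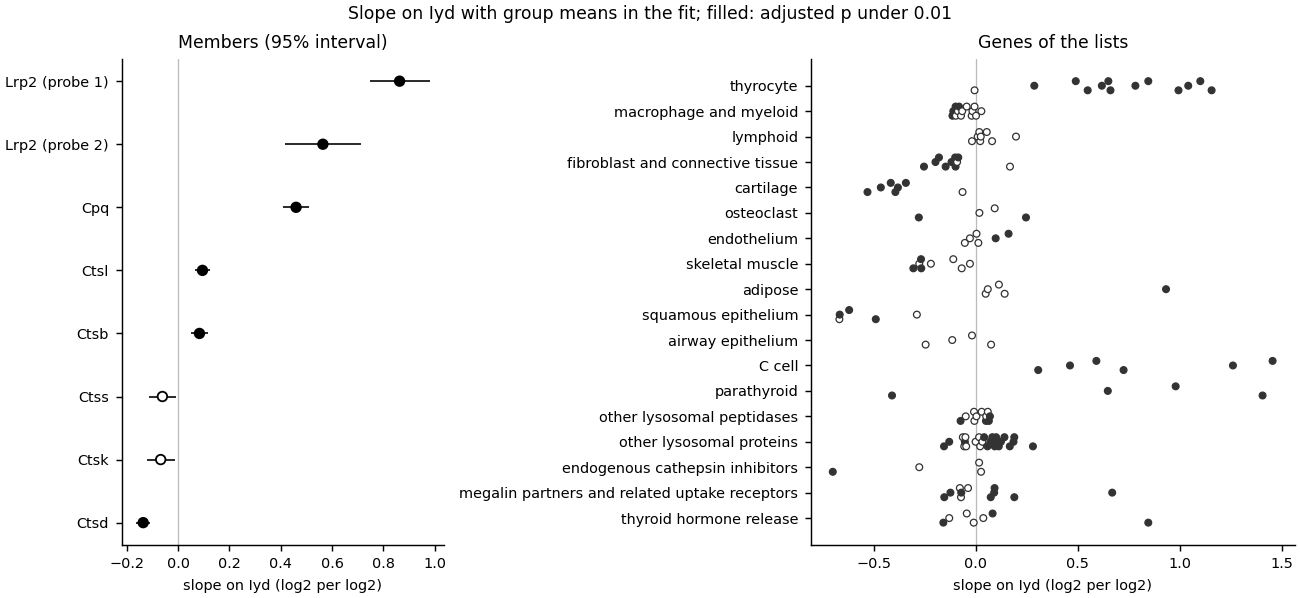
Slope on Iyd (log2 units per log2 unit of Iyd, horizontal axis) of the 8 member probes with 95% intervals (left) and of the genes of each list, 1 probe per gene (right), from fits with the 9 group means over 36 arrays; filled points passed an adjusted p of 0.01. Both Lrp2 probes and Cpq lie among the thyrocyte genes, while Ctsl, Ctsb and Ctsd lie in the range of the other lysosomal genes.

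The comparison of each irradiated group with the controls asked whether any of these transcripts was regulated after 131I. None passed. With the limits of the study, a 1.5-fold change or more at an adjusted p under 0.01, limma called 0 of the 64 pairs of a member probe and an irradiated group. Over all probes it called 0% at 9 kBq, 0% at 88 kBq, 0% at 170 kBq, 0% at 260 kBq, 0% at 340 kBq, 0% at 760 kBq, 0% at 1300 kBq and 0% at 4700 kBq. At these limits the study itself, with other software, reported the same Cpq probe as downregulated at 9 and 340 kBq. It also named LRP2 among the molecules in its upstream regulator analysis at 340 kBq. Why the calls differ was not tested. At an unadjusted p under 0.05, 1 of the 64 pairs passed, Ctss at 4700 kBq, where 1.66% of all probes passed. The shares of all probes at this level were 3.22% at 9 kBq, 3.36% at 88 kBq, 2.36% at 170 kBq, 1.12% at 260 kBq, 13.7% at 340 kBq, 1.64% at 760 kBq and 4.18% at 1300 kBq. In none of the 64 pairs did all 4 irradiated rats lie beyond all 4 controls. Of all probes, 1.73% did so at 9 kBq, 1.85% at 88 kBq, 1.24% at 170 kBq, 1.07% at 260 kBq, 4.35% at 340 kBq, 1.64% at 760 kBq, 1.26% at 1300 kBq and 1.27% at 4700 kBq. In an exact two-sided permutation test of 4 rats against 4, whose smallest possible p is 0.0286, the lowest p of any pair was 0.0857. Array weights, which give less weight to arrays that stand apart, brought some pairs close to the limit: the log2 ratio of Cpq at 9 kBq became -3.27 (adjusted p = 0.0122) and those of the first Lrp2 probe became -4.94 at 9 kBq (adjusted p = 0.034) and -6.54 at 340 kBq (adjusted p = 0.0416). That fit called 1692 probes higher and 661 lower at 9 kBq, no member among them.

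**Figure D3:**
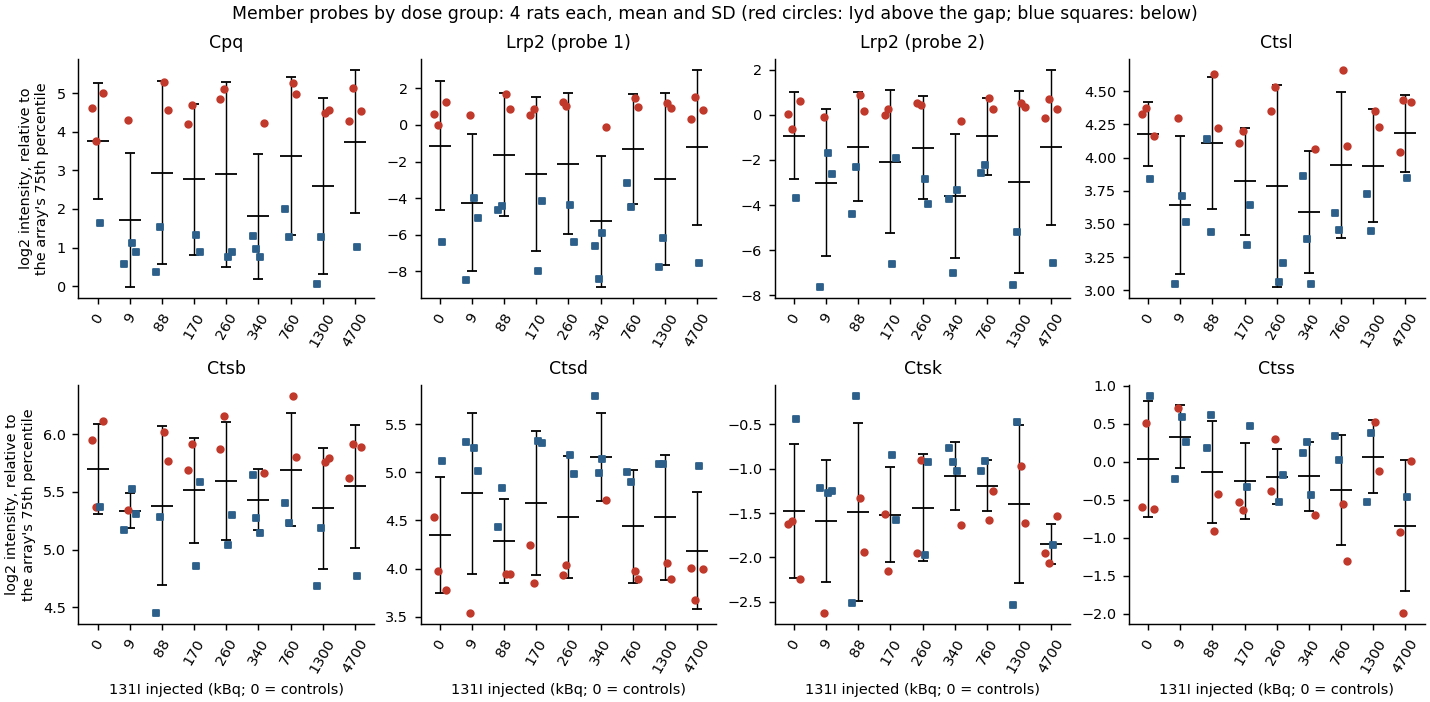
Level of each member probe by activity injected (kBq; 0 is the controls), with 1 point per rat, the mean as a bar and the SD as whiskers (n = 4 per group); red circles are rats with Iyd above its gap and blue squares rats below. For Cpq and Lrp2 the rats of a group part by the colour of the point, and the lowest Cpq means are those of 9 and 340 kBq, each with 1 red point.

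Cpq was split between high and low rats within every group. In the controls rats 1 to 4 had Cpq at 4.62, 3.75, 1.63 and 5.01. At 9 kBq they had it at 0.57, 4.30, 1.12 and 0.88, and at 340 kBq at 1.31, 0.95, 0.76 and 4.22. In each of these groups the rats split into high and low with none between 1.63 and 3.75, and the controls held 3 high rats where the other groups held 1. At 88 kBq the values were 0.37, 1.54, 5.30 and 4.55, at 170 kBq 4.21, 4.68, 1.31 and 0.88, and at 260 kBq 4.84, 5.10, 0.75 and 0.88. At 760 kBq they were 1.99, 1.27, 5.27 and 4.97, at 1300 kBq 0.05, 1.26, 4.49 and 4.56, and at 4700 kBq 4.27, 5.14, 1.01 and 4.55. The groups at 88, 170, 260, 760 and 1300 kBq were split into 2 high and 2 low rats, and 4700 kBq held 3 high rats, as the controls did. From the highest, the group means ± SD (n = 4) were 3.75 ± 1.51 in controls, 3.74 ± 1.86 at 4700 kBq, 3.37 ± 2.04 at 760 kBq, 2.94 ± 2.36 at 88 kBq, 2.89 ± 2.40 at 260 kBq, 2.77 ± 1.95 at 170 kBq, 2.59 ± 2.29 at 1300 kBq, 1.81 ± 1.62 at 340 kBq and 1.72 ± 1.74 at 9 kBq. Neighbours in this order lay closer together than 1 SD of either. The controls and 9 kBq lay further apart than 1 SD of either, but their comparison did not pass the limits. The log2 ratios of Cpq at 9 and 340 kBq were -2.04 (interval -4.82 to 0.75, adjusted p = 0.9995) and -1.95 (interval -4.73 to 0.83, adjusted p = 0.535). Within the first and the second scan day the ratio at 9 kBq was -0.75 and -3.90, and array weights gave -3.11 at 340 kBq. Of the controls, rat 1 alone was scanned on the second day, so that every ratio within that day, here and below, rests on that control. All rats of 88 kBq were scanned on the second day. With Iyd as a covariate, a fit that takes out whatever follows Iyd, they were -0.04 (interval -0.86 to 0.78) and 0.08 (interval -0.74 to 0.90), and on the 18 arrays above the gap -0.16 and -0.24.

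Lrp2 was split in the same way. Its first probe was at 0.60, 0.01, -6.38 and 1.24 in control rats 1 to 4, at -8.47, 0.55, -3.99 and -5.09 at 9 kBq, and at -6.59, -8.44, -5.89 and -0.14 at 340 kBq. The 1 low control and the 3 low rats of each irradiated group were those with Iyd below its gap. At 88 kBq the probe was at -4.64, -4.43, 1.67 and 0.86, at 170 kBq at 0.52, 0.87, -7.97 and -4.15, and at 260 kBq at 1.24, 1.01, -4.38 and -6.39. At 760 kBq it was at -3.19, -4.50, 1.48 and 0.997, at 1300 kBq at -7.77, -6.18, 1.19 and 0.93, and at 4700 kBq at 0.30, 1.51, -7.53 and 0.81. Every group held at least 1 rat near the level of the high controls and at least 1 far under it. The log2 ratios of the 2 probes were -3.12 and -2.09 at 9 kBq and -4.13 and -2.67 at 340 kBq, with standard errors of 2.60 and 1.94 and adjusted p from 0.501 to 0.9995. Within the first scan day they were -0.0083 and 0.34 at 9 kBq and -6.73 and -5.76 at 340 kBq, and within the second -7.38 and -5.14, and -4.81 and -2.48. Those at 340 kBq within the first day rest on rat 2 of that group alone, and those within the second day on control rat 1 alone. Normexp background correction gave -2.67 for the first probe at 340 kBq and -1.39 for the second at 9 kBq. Leaving out rat 1 of 9 kBq gave -1.71 and -0.55 there, leaving out rat 2 of 9 kBq or rat 3 of the controls gave -4.72 or -4.87 for the first probe, and leaving out rat 2 of 340 kBq gave -1.54 for the second. In the groups compared, the first probe was well above background on 3 of 4 arrays in the controls, 3 of 4 at 9 kBq and 2 of 4 at 340 kBq. With Iyd as a covariate the ratios were 0.63 and 0.36 at 9 kBq and -0.32 and -0.18 at 340 kBq, and on the 18 arrays above the gap -0.07 and -0.11 at 9 kBq and -0.76 and -0.30 at 340 kBq.

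Ctsd, which fell with Iyd, stood on the other side. In the controls it was at 4.53, 3.98, 5.12 and 3.78, at 9 kBq at 5.32, 3.54, 5.25 and 5.02, and at 340 kBq at 5.79, 4.99, 5.14 and 4.71. At 340 kBq 2 of 4 rats exceeded all controls and the other 2 overlapped them. The ratio at 340 kBq, 0.81 (interval -0.09 to 1.70), had the lowest adjusted p of the 64 pairs, 0.431, with an exact p of 0.0857. It was 0.20 with Iyd as a covariate (interval -0.22 to 0.63) and 0.62 on the 18 arrays above the gap (interval -0.04 to 1.27), where the group is 1 rat. At 9 kBq the ratio of 0.43 turned to -0.16 with the covariate and to -0.55 above the gap, and leaving out a single rat of the 2 groups moved it to 0.24 (control rat 4), 0.69 (control rat 3), 0.25 (rat 1 of 9 kBq), 0.84 (rat 2) or 0.27 (rat 3). Array weights gave 0.71 and the arrays of the first scan day 0.11. At 340 kBq the ratio was 0.48 with quantile normalization and with the authors' matrix. Beside it, the median log2 ratio over all probes at 340 kBq was 0.31. That median was 0.16 with Iyd as a covariate, 0.33 on the arrays above the gap, and -0.02 with quantile normalization and with the authors' matrix. Rat 4 of 340 kBq, the 1 rat above the gap there, had 88.5% of its probes well above background, the highest share of the 36 arrays. The part of this offset in the Ctsd ratio was not tested.

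Ctsl was at 4.33, 4.38, 3.84 and 4.17 in the controls, at 3.05, 4.30, 3.71 and 3.51 at 9 kBq, and at 3.86, 3.39, 3.05 and 4.07 at 340 kBq. Its ratios at these activities were -0.53 (interval -1.24 to 0.17) and -0.59 (interval -1.29 to 0.12, adjusted p = 0.468), and -0.12 and -0.17 with Iyd as a covariate. At 9 kBq the ratio of Ctsl was -0.34 without rat 1 of that group, and -0.12 and -1.04 within the first and the second scan day. Ctsb was at 5.95, 5.37, 5.37 and 6.11 in the controls, at 5.17, 5.35, 5.53 and 5.31 at 9 kBq, and at 5.65, 5.27, 5.15 and 5.67 at 340 kBq. The ratios of Ctsb were -0.36 and -0.27, and -0.0033 and 0.10 with the covariate. They were -0.23 and -0.13 without control rat 4, and that at 340 kBq was -0.17 without rat 3 of its group, -0.60 with quantile normalization, -0.59 with the authors' matrix, -0.49 with median centring and -0.45 with array weights. Within the first and the second scan day the ratio of Ctsb at 9 kBq was -0.18 and -0.72, and that at 340 kBq was -0.47 within the second. Over the 8 irradiated groups the log2 ratios ran from -0.59 to 0.01 for Ctsl and from -0.36 to -0.01 for Ctsb.

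Ctss at 4700 kBq was the only pair with an unadjusted p under 0.05. It was at -0.60, 0.51, 0.86 and -0.63 in the controls and at -0.92, -1.99, -0.46 and 0.01 at 4700 kBq. The groups overlapped, with 2 of the 4 irradiated rats lower than all controls. The ratio was -0.88 (interval -1.74 to -0.01, adjusted p = 0.9999, exact permutation p = 0.2), and -0.87 with Iyd as a covariate. It was -0.49 without rat 2 of 4700 kBq, -0.27 with array weights, and -0.47 and -0.85 within the first and the second scan day. Beside it, the mean level of the 14 macrophage genes was -0.77 at 4700 kBq and -0.16 in the controls, and its part in the ratio was not tested. Ctsk, the other cathepsin whose slope on Iyd missed the limit, had ratios from -0.38 to 0.39 over the 8 groups, 4 lower and 4 higher than controls, with a lowest adjusted p of 0.654.

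The thyrocyte genes moved beside these ratios. The mean level of the 13 genes was 0.68 in the controls, 0.74 at 4700 kBq, -2.74 at 9 kBq and -2.39 at 340 kBq, and between -1.28 and 0.02 in the other groups. The intervals show what 4 rats could resolve: with all 36 arrays, 15 of the 64 log2 ratios had a 95% interval that lay inside a 2-fold change either way, against 35 of 64 with Iyd as a covariate and 29 of 64 on the 18 arrays above the gap. With Iyd as a covariate 0 pairs passed the limits, and the lowest adjusted p was 0.8287. Over all 30366 probes that fit called at most 4 higher, at 4700 kBq, and at most 2 lower, at 9, 88 and 170 kBq. At an unadjusted p under 0.05, 1 pair passed, Ctss at 4700 kBq, where 869 of all probes did. On the 18 arrays above the gap the members' log2 ratios ran from -0.81 to 0.94, and the median over all probes at 340 kBq was 0.33. Calls over all probes are not given for that fit, since 9 and 340 kBq hold 1 rat each. The groups on the 18 arrays hold 1 to 3 rats each, and a single rat is assumed there to vary like the others.

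**Figure D4:**
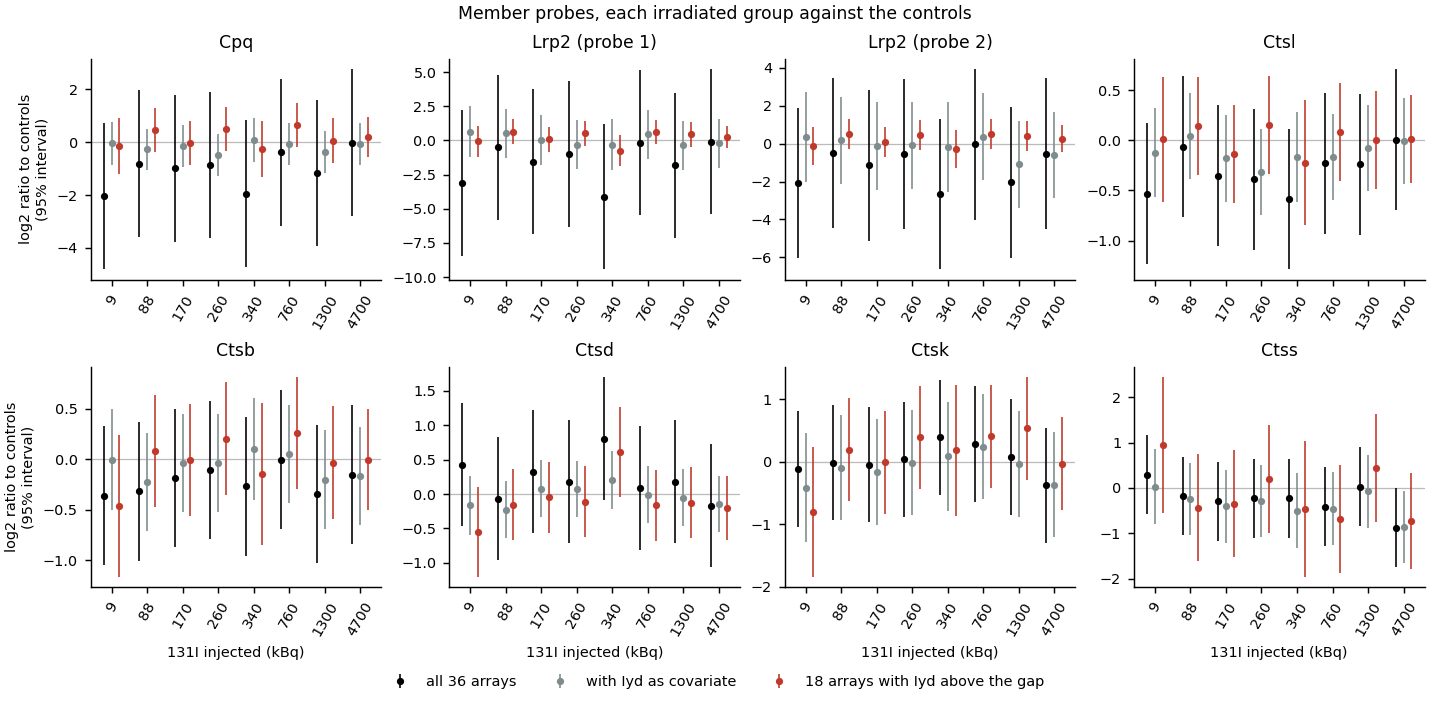
Log2 ratio of each irradiated group to the controls (vertical axis) with 95% intervals, by activity (kBq), for the 8 member probes; black is the fit on all 36 arrays, grey the same with Iyd as a covariate and red the fit on the 18 arrays with Iyd above its gap. For Cpq and Lrp2 the intervals narrow in the grey and red fits, and the low ratios at 9 and 340 kBq lie nearer 0 in the grey fit.

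Slopes on the mean level of 10 other cell type lists, with Iyd and the group means kept in the fit, asked what the members moved with beyond Iyd itself. Below its gap Iyd was well above background on only 3 of 18 arrays, while Tg ranged from -4.51 to 6.83. Keeping Iyd in the fit therefore cannot take out all thyrocyte content there. These fits were added after the data had been seen. Of 80 pairs of a member probe and a list, 6 passed an adjusted p of 0.01. The clearest was Ctss, the protease of antigen-presenting cells, on the macrophage and myeloid list: its slope was 1.04 (SE 0.08, adjusted p = 6.62e-09), a slope called upward in 0.349% of all probes. Ctss also rose with the fibroblast and connective tissue list (0.74, SE 0.16, adjusted p = 0.00802), as 1.04% of probes did. The macrophage list itself ranged from -1.73 to 0.28 above the Iyd gap and from -0.74 to 0.59 below it, and 4 of its 14 genes, Csf1r and the complement genes C1qa, C1qb and C1qc, fell with Iyd.

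Ctsk, best known from osteoclasts, had its steepest list slope on the fibroblast and connective tissue genes (0.68, SE 0.19), with an adjusted p of 0.0509 that missed the limit. Its slope on the macrophage list was 0.48. Of the 4 osteoclast genes with a probe, Mmp9 was well above background on 3 of 36 arrays and Atp6v0d2 on 7, while Acp5 was so on all 36 and rose with Iyd (0.25) and Calcr fell with it (-0.28).

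Both Lrp2 probes rose with the squamous epithelium list, with slopes of 0.28 (SE 0.04, adjusted p = 9.97e-06) and 0.38 (SE 0.04, adjusted p = 1.14e-07), as did 9.39% of all probes. This pattern is on the side where Iyd is low. On 11 of the 18 arrays below the Iyd gap the squamous list was at 2.81 to 4.84, and there the second Lrp2 probe was at -3.94 to -1.68 and well above background on 11 of 11. On the other 7 the list was at -5.68 to -4.94, and the probe was at -7.62 to -4.39 and well above background on 2 of 7. These ranges do not overlap, and both lie under the range of the 18 arrays with Iyd above its gap. Those of the first probe did overlap: it was at -6.59 to -3.19 on the 11 arrays, well above background on 8, and at -8.47 to -4.64 on the other 7, well above background on 1. Cdh16, a cadherin of thyrocytes and kidney, was at -2.36 to 0.56 on the same 11 arrays and at -6.96 to -1.42 on the other 7, while Iyd was at -8.20 to -3.28 and at -8.21 to -5.39.

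The first Lrp2 probe fell with the endothelium list (-1.88, SE 0.47, adjusted p = 0.00694), as 2.84% of probes did, and the second had a slope of -2.04 that missed the limit (adjusted p = 0.0295). Ctsb fell with the lymphoid list (-0.11, SE 0.03, adjusted p = 0.00773), as 1.37% of probes did, and in the lymphoid list 2 to 8 of 8 genes were well above background on an array. Cpq, Ctsd, Ctsl and Ctsk passed on none of the 10 lists.

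**Figure D5:**
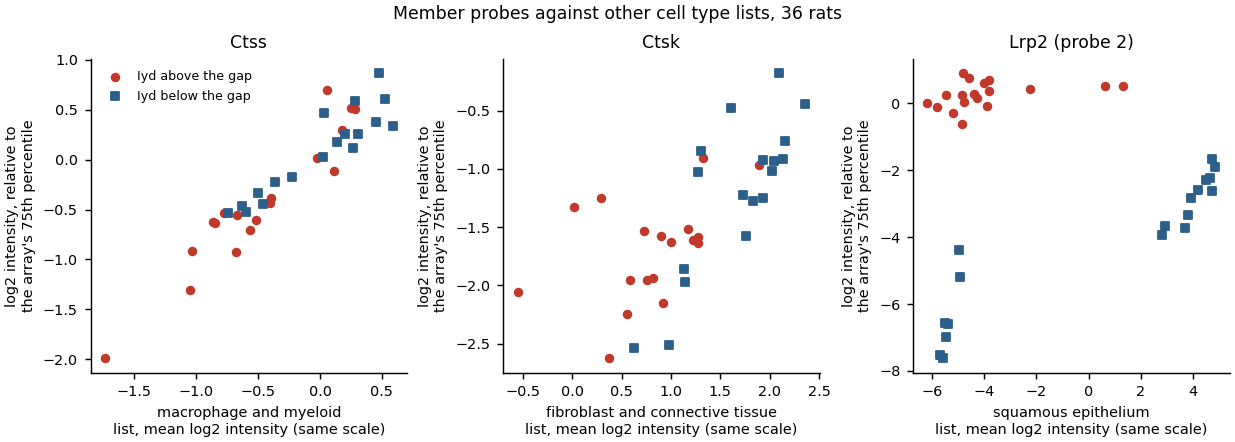
Level of Ctss, Ctsk and the second Lrp2 probe (vertical axes) against the mean level of the macrophage, fibroblast and squamous epithelium lists (horizontal axes), all log2 intensity relative to the 75th percentile of the array, 1 point per rat; red circles are the 18 arrays with Iyd above its gap and blue squares the 18 below. Ctss follows the macrophage list on both sides, and Lrp2 follows the squamous list among the blue squares, from -7.62 to -1.68.

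The transcripts with the most similar pattern were found among 13483 probes as those with the highest Pearson correlation of deviations from the group means over the 36 arrays. The arrays share the 2 sides of the Iyd gap, which raises these correlations, and they are given as a description. For Cpq they were Tnfsf13 (0.991), Dpysl2 (0.989) and Man1c1 (0.989), and for the second Lrp2 probe Cdh16 (0.986), Tmc4 (0.985) and Baiap2l1 (0.982). For Ctss they were the macrophage complement genes C1qc (0.916) and C1qa (0.915) and the thromboxane synthase gene Tbxas1 (0.915). For Ctsk they were 2 genes of matrix proteoglycans, Omd (0.889) and Bgn (0.844), and Rab31 (0.834). Ctsb was nearest to Myo1d (0.964), App (0.959) and Vegfc (0.957), Ctsl to Gtf2e2 (0.953), Tvp23b (0.945) and Lmbr1 (0.942), and Ctsd to Mrps12 (0.943), Acad9 (0.942) and Slc35e4 (0.938).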

How the data were processed

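Total RNA of each thyroid was hybridised by the authors to 1 one-colour Agilent SurePrint G3 Rat GE 8x60K array, and the deposited scanner files hold Feature Extraction 10.7.3.1 processed signal intensities. A deposited matrix holds the authors' quantile normalized intensities (Partek is named in the submitters' processing notes) and served as an alternative. Control spots and spots marked as outliers were left out, spots of a probe were averaged, and each value is log2 of the processed signal minus the array's 75th percentile. A probe was well above background where most of its spots were so marked. Accessions were named through RefSeq (GRCr8): 17998 of 30367 probes matched 1 gene, and 99 lacked a value on at least 1 array. Members and lists were chosen with earlier results of these data known. limma 3.58.1 (R 4.3.3) fitted the 9 group means over 36 arrays for the comparisons with controls, and group means plus Iyd for the slopes, with Benjamini-Hochberg adjustment over all probes. The study's methods gave the limits (adjusted p under 0.01, fold change of at least 1.5) but name no test. Tested on simulated data of 30268 probes, the comparison recovered 68.1% of changes of 4 SD and 0% of 2 SD, and the slope fit 32.4% of the shallowest slopes simulated. The named genes were the members, Iyd, genes of the lists by their brightest probe, and for each member the 3 other genes with the highest correlation among probes well above background on at least 18 arrays. Alternatives covered normalization, background correction, blocks for slide, scan day and rat number, array weights, a filter on dim probes and leaving out each rat. Rats are separate animals, and their number limits the precision of an array comparison. Promoter sequences are from RefSeq. Plotting and tables used Python 3.11.15, scipy 1.17.1 and matplotlib 3.10.9. Some list genes are counted but not reported here by name.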

Additional observations from a re-analysis of the deposited data

Results flagged for a closer look

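In 7 of the 72 groups of 4 rats (8 member probes in 9 groups), 1 rat stood apart from the other 3 by Dixon's test, which flags about 1 group in 20 by chance. Cpq was at 4.30 in rat 2 of 9 kBq, with the others at 0.57 to 1.12, and at 4.22 in rat 4 of 340 kBq, with the others at 0.76 to 1.31. Ctsd was at 3.54 and Ctsk at -2.63 in the same rat 2 of 9 kBq, with the others at 5.02 to 5.32 and at -1.28 to -1.22. The first Lrp2 probe was at -6.38 in control rat 3, with the others at 0.01 to 1.24, and at -7.53 in rat 3 of 4700 kBq, with the others at 0.30 to 1.51, where the second was at -6.55, with the others at -0.13 to 0.69. All 7 lie in groups with 1 or 3 rats above the Iyd gap, and each rat named is the one of its group on its own side of that gap.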

How the results depend on the processing

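The count of 0 regulated pairs out of 64 was the same in each of 36 fits that left out 1 rat. It was also the same under every other setting that kept more than 1 rat in each group. Over all probes these fits called at most 6 higher and at most 3 lower in a group. The exception was array weights, with 1692 higher and 661 lower at 9 kBq. Array weights brought the adjusted p of Cpq at 9 kBq from 0.9995 to 0.0122. The count of 6 member probes with a slope on Iyd ranged from 6 to 7 when single rats were left out. It was 3 on the arrays of the first scan day and 4 on those of the second, 7 with array weights, 8 at an adjusted p under 0.05, and 0 on the arrays above and 0 on those below the Iyd gap, where fewer arrays and a short range of Iyd remain. It was 6 under quantile normalization, median centring, normexp background correction, the authors' matrix, slide or scan day as a block, the filter on dim probes, the thyrocyte list in place of Iyd and no group means. Calls over all 30366 probes moved too: 5568 rose and 7130 fell in the main fit. With array weights 5929 rose and 9111 fell, at an adjusted p under 0.05 6651 and 9160, and with normexp 4702 and 11676. Either scan day alone, with fewer arrays, called fewer probes. Below the gap the slope turned to -0.082 for Ctsb and -0.32 for the second Lrp2 probe. With Iyd as a covariate the log2 ratio turned to 0.082 for Cpq and 0.10 for Ctsb at 340 kBq, and at 9 kBq to -0.16 for Ctsd, 0.63 for the first and 0.36 for the second Lrp2 probe. On the arrays above the gap that at 9 kBq turned to -0.55 for Ctsd and 0.0085 for Ctsl, and on the first scan day to 0.34 for the second Lrp2 probe. The cause was not tested. With the rat number as a replicate block, 0 pairs were regulated and 6 probes had a slope, so that it changed no call. The numbers 1 to 4 are shared by the groups but nothing says that they pair rats: same-numbered rats' deviations correlated by -0.71 to 0.76 (median -0.03, over 0.1 in 57 of 144 pairs). Dim probes limit the depth on the lower side of the gap, where Iyd was well above background on 3 of 18 arrays and the first Lrp2 probe on 9.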
